A study of Mus musculus with 16 samples.

Results

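Secreted proteins with antimicrobial activity, the defensins left aside, were followed in mouse colon organoids, which are cultured balls of colon epithelium. The 8 genes were Pglyrp1, Ang4, Pla2g2a, Mptx2, Saa3, Saa1, Lcn2 and Retnlb, taken by gene symbol from the 18850 genes that carried a named probe set. Each of the 8 had 1 probe set, so no choice among probe sets was needed. RNA from 16 samples had been measured on 1 array each, in 4 groups of 4. The groups were ATF2/7 fl organoids given tumour necrosis factor alpha (TNFa, recombinant, 50 ng/ml for 12 h), untreated ATF2/7 fl organoids, wild-type (WT) organoids given the same TNFa, and untreated WT organoids. All 4 groups grew in ENR medium. The ATF2/7 fl samples carry altered alleles of both Atf2 and Atf7, genes of related bZIP transcription factors. Their labels name Atf2 as floxed and Atf7 as knocked out in one place and the reverse in another. Whether a Cre had recombined the floxed allele is not stated, and mouse strain and age are likewise not given in the sources used here. Nothing in the labels says that numbered samples came from separate animals or cultures, so p-values measure only the spread between these samples, which may be technical.

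The intestinal epithelium keeps bacteria at a distance with secreted proteins that bind cell walls, break membranes, degrade RNA or withhold iron. Paneth and goblet cells store several of them in granules, whereas absorptive cells make others when cytokines or microbial products reach them. TNFa acts on epithelium mainly through NF-kB, a transcription factor family that controls many acute-phase and defence genes.

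TNFa raised most of the measurable members. In ATF2/7 fl organoids 4 of the 6 members bright enough to test rose (Pla2g2a, Ang4, Pglyrp1 and Mptx2) and 0 fell, and in WT organoids 4 of 6 rose (Ang4, Pglyrp1, Pla2g2a and Saa3) and 0 fell. Over all 11766 genes tested, 3.51% rose and 2.47% fell in ATF2/7 fl organoids, and 5.03% rose and 5.75% fell in WT organoids. The members were listed with earlier results of these data known. The median change of the 6 was 0.52 log2 in ATF2/7 fl organoids, against 0.01 log2 over all tested genes, and 0.47 log2 in WT organoids, against 0.01 log2. Pglyrp1, Ang4 and Pla2g2a rose in both genotypes. Calls rest on limma's moderated test with a Benjamini-Hochberg adjusted p under 0.05, from 1 fit to all 16 arrays. A gene was tested if it lay above its array's 40th percentile, 6.40 to 6.56 log2, on at least 4 arrays. All 6 tested members did so on all 16 arrays. Lcn2 and Retnlb did so on 0 of 16 and were not tested. The genotype comparisons gave fewer calls. With TNFa, Mptx2 and Ang4 were higher in ATF2/7 fl organoids than in WT organoids and 0 members were lower, against 1.56% of tested genes higher and 1.13% lower. Without TNFa, Pla2g2a was lower and 0 members were higher, against 1.48% of tested genes lower and 1.00% higher.

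**Figure D1:**
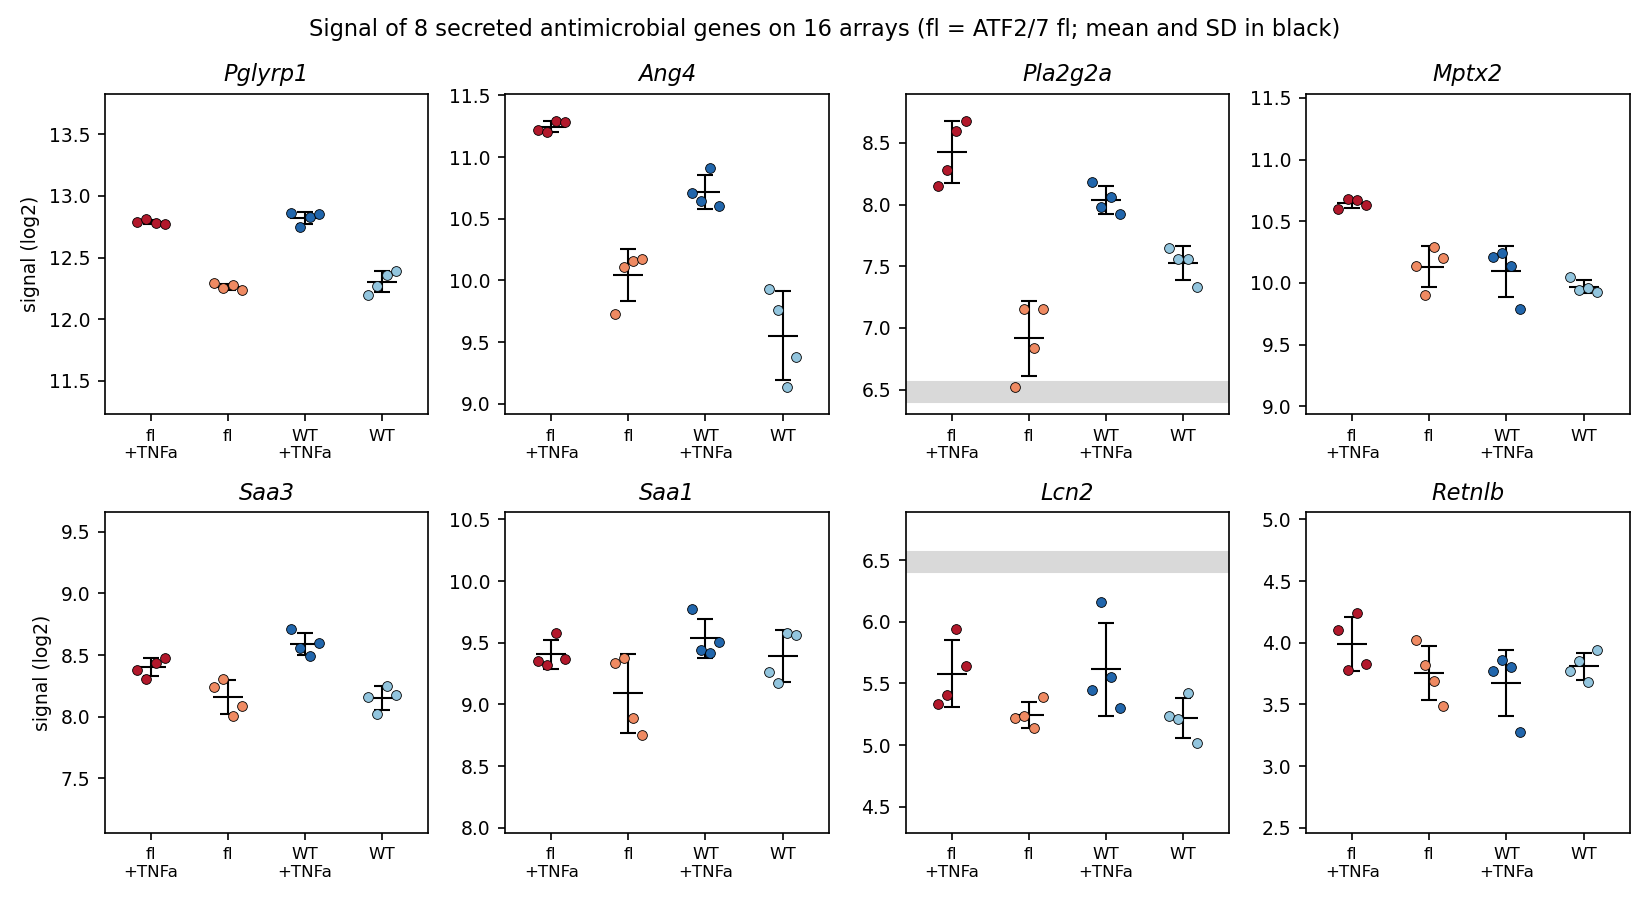
Signal (log2, vertical axis) of the 8 members on 16 arrays, 4 points a group, with the group mean and SD in black; each panel spans 2.6 log2. Grey bands mark the range of the arrays' 40th percentiles, 6.40 to 6.56 log2: Lcn2 lies below it on all arrays, and Pla2g2a has its lowest value, 6.52, within it.

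Pglyrp1, a peptidoglycan recognition protein that binds bacterial cell wall and kills bacteria, had one of the brightest probe sets of the arrays, ranked 3 to 94 among 19825. The gene lies on chromosome 7 (18884690 to 18890438, GRCm38.p6). Its signal was 12.79, 12.81, 12.78 and 12.77 log2 in ATF2/7 fl organoids with TNFa, against 12.29, 12.25, 12.28 and 12.24 in untreated ones. WT organoids gave 12.86, 12.75, 12.83 and 12.85 log2 with TNFa, against 12.20, 12.27, 12.36 and 12.39 without. Every TNFa array was above every untreated array, in both genotypes. Non-overlapping groups with the TNFa arrays higher were found for 7.88% of tested genes in ATF2/7 fl organoids and 6.82% in WT organoids. The rise was 1.44-fold in ATF2/7 fl organoids (0.52 log2, SE 0.05, limma adjusted p = 3.1e-06) and 1.43-fold in WT organoids (0.52 log2, SE 0.05, limma adjusted p = 2.9e-06). The rises differed by 0.00 log2 (ATF2/7 fl minus WT, 95% interval -0.15 to 0.16, limma adjusted p = 0.996). The highest signal of any probe set on an array was 12.9 log2. Whether closeness to this upper end limited the measured rise was not tested.

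Ang4 encodes a ribonuclease of the angiogenin family that kills microbes and is made by mouse Paneth and goblet cells. The gene lies on chromosome 14 (51763892 to 51773590, GRCm38.p6). Its signal was 11.22, 11.20, 11.29 and 11.28 log2 in ATF2/7 fl organoids with TNFa, against 9.73, 10.11, 10.16 and 10.17 in untreated ones. WT values were 10.71, 10.64, 10.91 and 10.60 log2 with TNFa, against 9.93, 9.76, 9.14 and 9.38 without. TNFa arrays lay above untreated arrays throughout, and the untreated WT arrays were the most scattered (SD 0.36 log2, n = 4) and the treated ATF2/7 fl arrays the least (SD 0.04). The rise was 2.30-fold in ATF2/7 fl organoids (SE 0.14 log2, limma adjusted p = 1.8e-05) and 2.24-fold in WT organoids (SE 0.14 log2, limma adjusted p = 2.1e-05). It ranked 35 among all rises in ATF2/7 fl organoids and 39 in WT organoids. The TNFa effects differed by 0.04 log2 (95% interval -0.37 to 0.45, limma adjusted p = 0.982).

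Between genotypes, Ang4 was higher in ATF2/7 fl organoids with TNFa, at an adjusted p close to the threshold. With TNFa the means were 11.25 ± 0.04 log2 in ATF2/7 fl organoids and 10.72 ± 0.14 in WT organoids (SD, n = 4 each), and the groups did not overlap, as for 4.27% of tested genes higher in ATF2/7 fl organoids. That difference, 1.44-fold (0.53 log2, SE 0.14), had a limma adjusted p of 0.04997, just under the threshold. Without TNFa the means were 10.04 ± 0.21 log2 in ATF2/7 fl organoids and 9.55 ± 0.36 in WT organoids, the groups overlapped, and the difference of 0.49 log2 was not called (SE 0.14, limma adjusted p = 0.0775). The difference with TNFa stayed between 0.49 and 0.59 log2 whichever single array was left out, but its adjusted p was above the threshold when any of 12 arrays was left out (WT 2 and 4, WT + TNFa 1, 2 and 4, ATF2/7 fl 2, 3 and 4, or any ATF2/7 fl + TNFa array), with limma adjusted p of 0.0514 to 0.122. The difference without TNFa was called when WT 1 (0.62 log2, limma adjusted p = 0.0174) or ATF2/7 fl 1 (0.59 log2, limma adjusted p = 0.0308) was left out.

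Pla2g2a, a secreted phospholipase A2 that hydrolyses bacterial membrane lipids, had the largest TNFa rise of the members in ATF2/7 fl organoids. RefSeq annotates the gene in the C57BL/6J reference as a transcribed pseudogene (chromosome 4, 138831857 to 138835189, GRCm38.p6), since that strain carries a disrupted copy. Which copy these organoids carry depends on their strain, and the signal speaks for RNA only. It was 8.15, 8.28, 8.60 and 8.68 log2 in ATF2/7 fl organoids with TNFa, against 6.52, 7.15, 6.84 and 7.15 in untreated ones. The WT arrays read 8.18, 7.98, 8.06 and 7.92 log2 with TNFa, against 7.65, 7.56, 7.56 and 7.33 without. Untreated ATF2/7 fl arrays were the lowest of the 16, below all untreated WT arrays, while the treated groups of the 2 genotypes overlapped. The lowest signal, 6.52 log2 on ATF2/7 fl 1, was close to the 40th percentile of that array, 6.51 log2. TNFa raised Pla2g2a 2.85-fold in ATF2/7 fl organoids (1.51 log2, SE 0.14, limma adjusted p = 1.1e-06), where it ranked 21 among all rises. In WT organoids the rise was 1.42-fold (0.51 log2, SE 0.14, limma adjusted p = 0.0214), where it ranked 180.

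The TNFa effect on Pla2g2a was 1.00 log2 larger in ATF2/7 fl organoids than in WT organoids (SE 0.19, 95% interval 0.60 to 1.41). This difference had an unadjusted p of 7.3e-05 in the limma fit and was not called after adjustment over all genes (limma adjusted p = 0.143). It was the ninth largest positive difference of the 11766 genes by size, and 1 gene in all, 0.00850%, was called in that comparison. With a variance trend and robust fitting Pla2g2a was called there (limma adjusted p = 0.0419). It was called in 0 of the 16 fits with 1 array left out (0.87 to 1.09 log2, limma adjusted p of 0.0991 to 0.413). Without TNFa, Pla2g2a was lower in ATF2/7 fl organoids, at 6.92 ± 0.30 log2 against 7.52 ± 0.14 in WT organoids (1.52-fold, fell by 0.61 log2, SE 0.14, limma adjusted p = 0.0203), and the groups did not overlap, as for 5.88% of tested genes lower in ATF2/7 fl organoids. With TNFa it stood at 8.43 ± 0.25 log2 in ATF2/7 fl organoids and 8.03 ± 0.11 in WT organoids, a difference of 0.39 log2 that was not called (SE 0.14, limma adjusted p = 0.170). The size of both smaller differences held when single arrays were left out, at 0.44 to 0.55 log2 for the WT rise and -0.69 to -0.47 log2 for the untreated genotype difference, while the adjusted p was above the threshold in some of these fits. The WT rise lost its call without WT 4 (limma adjusted p = 0.0734), WT + TNFa 1 (0.0639) or WT + TNFa 3 (0.0524). The untreated genotype difference lost its call without WT 1 (limma adjusted p = 0.0652), WT 2 (0.0602), WT 3 (0.0541), ATF2/7 fl 1 (0.0621) or ATF2/7 fl 3 (0.0558).

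**Figure D2:**
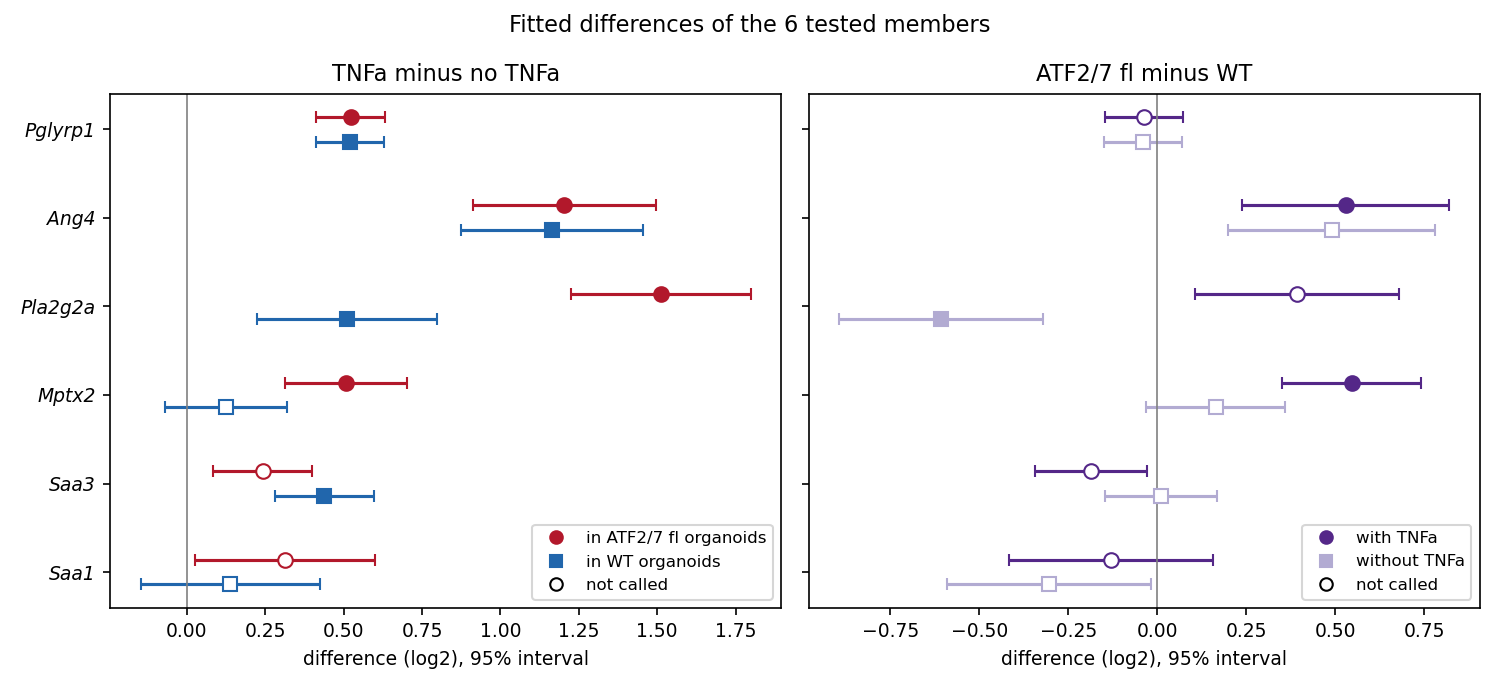
Fitted differences (log2, horizontal axis) of the 6 tested members with 95% intervals: TNFa minus no TNFa on the left, ATF2/7 fl minus WT on the right; filled symbols passed an adjusted p under 0.05. The intervals of Pla2g2a for TNFa, 1.22 to 1.80 in ATF2/7 fl organoids and 0.22 to 0.80 in WT organoids, do not meet, and those of Pglyrp1 and Ang4 nearly coincide.

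Mptx2 encodes a mucosal pentraxin of the family of C-reactive protein, and in mouse small intestine it marks Paneth cells. The gene lies on chromosome 1 (173274461 to 173277756, GRCm38.p6). Its signal was 10.60, 10.68, 10.67 and 10.63 log2 in ATF2/7 fl organoids with TNFa, against 10.14, 9.90, 10.29 and 10.20 in untreated ones. Among WT organoids it was 10.21, 10.24, 10.14 and 9.79 log2 with TNFa, against 10.05, 9.94, 9.96 and 9.93 without. The 4 treated ATF2/7 fl arrays stood above all other 12 arrays, and the remaining 3 groups overlapped. TNFa raised Mptx2 1.42-fold in ATF2/7 fl organoids (0.51 log2, SE 0.09, limma adjusted p = 0.00195). In WT organoids the change of 0.13 log2 was not called (SE 0.09, 95% interval -0.07 to 0.32, limma adjusted p = 0.460). With TNFa, Mptx2 averaged 10.64 ± 0.04 log2 in ATF2/7 fl organoids and 10.10 ± 0.21 in WT organoids (SD, n = 4 each), 1.46-fold higher (0.55 log2, SE 0.09, limma adjusted p = 0.00256). Without TNFa the difference of 0.16 log2 was not called (SE 0.09, limma adjusted p = 0.484). The difference of the TNFa effects was 0.38 log2 (95% interval 0.11 to 0.66) and was not called either (limma adjusted p = 0.513), so the TNFa response was not shown to differ between the genotypes.

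Saa3 and Saa1 encode serum amyloid A proteins, acute-phase proteins that bind retinol and lipids and that gut epithelium makes on contact with bacteria. Both genes lie on chromosome 7, Saa3 at 46711998 to 46719615 and Saa1 at 46740497 to 46743181 (GRCm38.p6). Saa3 was 8.38, 8.31, 8.44 and 8.48 log2 in ATF2/7 fl organoids with TNFa, against 8.24, 8.31, 8.01 and 8.09 in untreated ones. Its WT signals were 8.71, 8.56, 8.49 and 8.60 log2 with TNFa, against 8.16, 8.02, 8.25 and 8.18 without. Treated and untreated arrays did not overlap in either genotype, although in ATF2/7 fl organoids they nearly touched. Saa3 rose 1.36-fold in WT organoids (0.44 log2, SE 0.07, limma adjusted p = 7.3e-04). In ATF2/7 fl organoids the change of 0.24 log2 was not called (SE 0.07, limma adjusted p = 0.0702), but it was called without ATF2/7 fl 2 (0.29 log2, limma adjusted p = 0.0389). The TNFa effects differed by -0.20 log2 (ATF2/7 fl minus WT, 95% interval -0.42 to 0.03, limma adjusted p = 0.740). Between genotypes, the treated groups nearly touched, at 8.31 to 8.48 log2 in ATF2/7 fl organoids and 8.49 to 8.71 in WT organoids. That Saa3 difference of -0.19 log2 was not called (SE 0.07, limma adjusted p = 0.260).

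Saa1 was not called in any of the 5 comparisons. It was 9.35, 9.32, 9.58 and 9.37 log2 in ATF2/7 fl organoids with TNFa, against 9.34, 9.38, 8.89 and 8.75 in untreated ones. Its WT signals were 9.77, 9.44, 9.42 and 9.51 log2 with TNFa, against 9.26, 9.17, 9.58 and 9.56 without. The 4 groups overlapped in each comparison. The TNFa change was 0.31 log2 in ATF2/7 fl organoids (95% interval 0.03 to 0.60, limma adjusted p = 0.257) and 0.14 log2 in WT organoids (95% interval -0.15 to 0.42, limma adjusted p = 0.597). Within groups, Saa3 and Saa1 varied together from array to array. The correlation of their deviations from the group means was 0.853 over 16 arrays, the highest of any pair of members, given as a description of signals that share the same arrays. Serum amyloid A genes are similar in sequence, and whether the probe sets separate them was not tested.

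Promoter sequence was taken from RefSeq (GRCm38.p6) for the 6 members it covered, and 4 are shown because Ang4, Pglyrp1 and Saa3 rose with TNFa and Saa1 is the relative of Saa3 that was not called. Each run holds the 250 bases before the annotated transcription start, 5′ to 3′, with matches to the searched motifs in capitals. Ang4 is chr14:51773591-51773840, minus strand. Pglyrp1 is chr7:18884440-18884689, plus strand. Saa3 is chr7:46715677-46715926, minus strand, and Saa1 is chr7:46742981-46743230, minus strand. For Saa3 and Saa1 the start used lies inside the gene span given above. The Saa3 run therefore lies wholly within that span, and the Saa1 run mostly so.
Ang4: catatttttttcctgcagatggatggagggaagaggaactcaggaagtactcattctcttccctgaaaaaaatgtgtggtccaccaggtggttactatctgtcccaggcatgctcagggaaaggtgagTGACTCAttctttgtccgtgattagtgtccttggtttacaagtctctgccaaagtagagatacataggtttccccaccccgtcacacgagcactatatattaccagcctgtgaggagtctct
Pglyrp1: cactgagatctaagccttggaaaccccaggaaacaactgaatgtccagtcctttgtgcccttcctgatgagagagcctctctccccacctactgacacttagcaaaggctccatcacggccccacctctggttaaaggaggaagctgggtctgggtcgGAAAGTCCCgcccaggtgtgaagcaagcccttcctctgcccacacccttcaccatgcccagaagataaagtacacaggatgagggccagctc
Saa3: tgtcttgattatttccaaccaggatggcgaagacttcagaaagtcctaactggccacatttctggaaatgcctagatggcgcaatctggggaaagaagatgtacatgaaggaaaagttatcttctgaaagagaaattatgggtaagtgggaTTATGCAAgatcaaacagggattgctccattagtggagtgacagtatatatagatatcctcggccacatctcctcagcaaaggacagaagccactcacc
Saa1: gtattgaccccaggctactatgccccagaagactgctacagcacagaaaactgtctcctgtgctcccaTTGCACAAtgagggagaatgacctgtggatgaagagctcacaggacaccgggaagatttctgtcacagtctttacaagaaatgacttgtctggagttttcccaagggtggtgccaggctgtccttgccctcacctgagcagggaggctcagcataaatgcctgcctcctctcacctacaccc

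The motifs were searched on both strands, in windows that also held the first 50 bases after the start, and were chosen with these sequences in view. They were an NF-kB site written as GGGANNTTC, the AP-1 site TGANTCA, the ATF/CREB site TGACGTCA, the C/EBP site TTNNGCAA and the TATA box TATAAA. The letters of any motif do not contain those of another. The Pglyrp1 window held 1 NF-kB match, on the opposite strand, beginning 92 bases before the start. This motif was present in 3.94% of 32851 promoter windows of the same length. The Ang4 window held 1 AP-1 match, 122 bases before the start, and 7.81% of windows held one. The Saa3, Saa1 and Lcn2 windows held 1 C/EBP match each, beginning 99, 182 and 216 bases before the start, and 10.8% of windows held one. The ATF/CREB site, found in 1.79% of windows, and the TATA box, found in 13.6%, had 0 matches in the 6 members' windows, which says only that these letters are not there. The Mptx2 window held none of the motifs searched.

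Lcn2, a lipocalin that captures the iron-carrying siderophores of bacteria, was dim in all groups. Its signal was 5.33, 5.41, 5.94 and 5.64 log2 in ATF2/7 fl organoids with TNFa, against 5.22, 5.24, 5.14 and 5.39 in untreated ones. The WT signals were 5.45, 6.16, 5.55 and 5.30 log2 with TNFa, against 5.24, 5.21, 5.42 and 5.02 without. The treated group means were 0.34 log2 above the untreated mean in ATF2/7 fl organoids and 0.39 log2 above it in WT organoids, with overlapping groups. All of these signals were below the 40th percentile of their arrays. With no filter on dim genes, Lcn2 was not called for TNFa in ATF2/7 fl organoids (limma adjusted p = 0.451) or in WT organoids (0.196). A signal in this range does not separate low expression from probe background.

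Retnlb encodes a resistin-like protein of goblet cells that acts against bacteria and parasitic worms, and its probe set was dim as well. Its signal was 3.78 to 4.24 log2 in ATF2/7 fl organoids with TNFa, 3.49 to 4.02 in untreated ATF2/7 fl organoids, 3.28 to 3.86 in WT organoids with TNFa and 3.68 to 3.94 in untreated WT organoids. All 4 groups overlapped. All of its signals were below the 40th percentile of their arrays. With no filter it was called in none of the comparisons (limma adjusted p of 0.413 to 0.943).

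**Figure D3:**
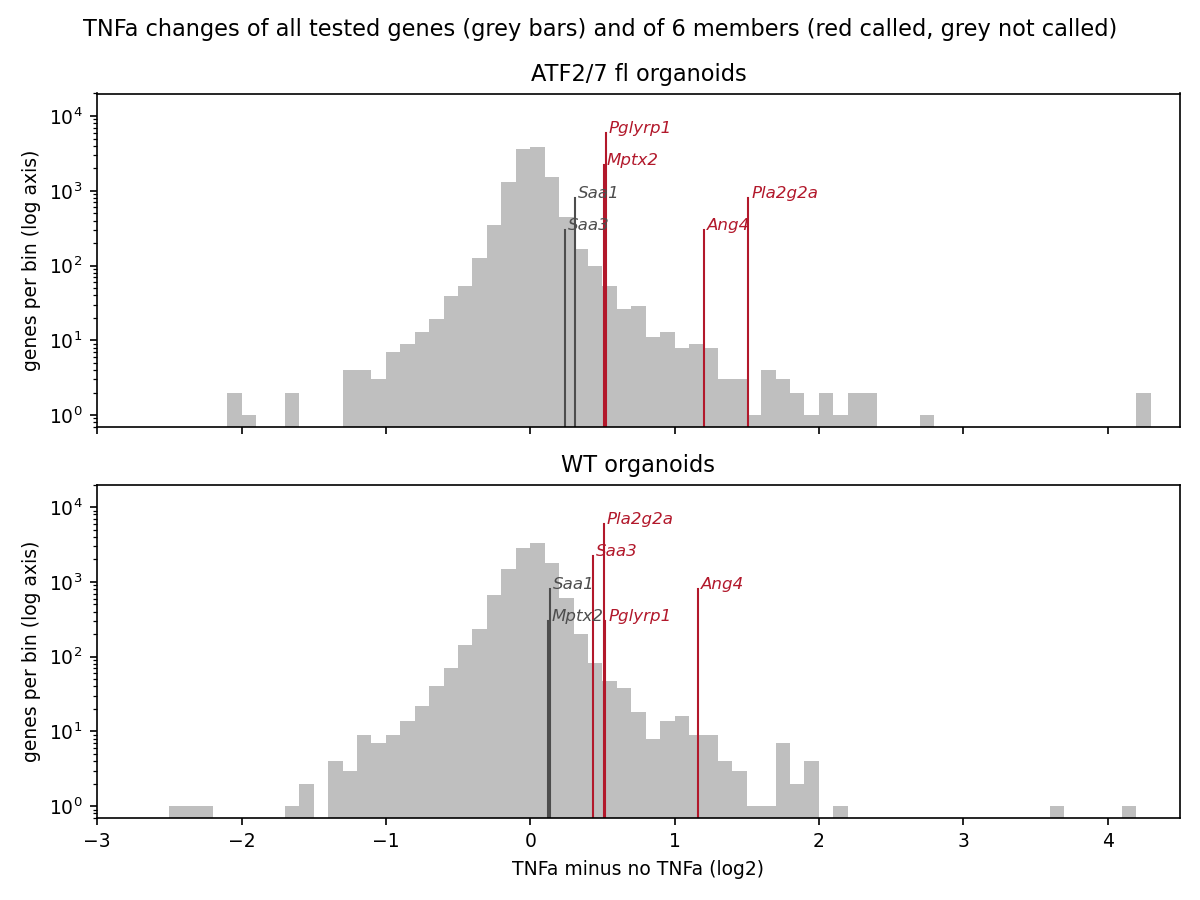
Number of tested genes (vertical log axis) by TNFa change in bins of 0.1 log2 (horizontal axis), ATF2/7 fl organoids above and WT organoids below; labelled lines mark the 6 tested members, red where called. All 6 lie right of 0 in both genotypes, from 0.24 (Saa3) to 1.51 (Pla2g2a) in ATF2/7 fl organoids and from 0.13 (Mptx2) to 1.16 (Ang4) in WT organoids.

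Close relatives of the members gave a check on how widely each family moved. Of 27 listed paralogs, 11 were tested. In ATF2/7 fl organoids TNFa raised 2 and lowered 1, and in WT organoids it raised 1 and lowered 0. Over all tested genes, 3.51% rose and 2.47% fell in ATF2/7 fl organoids, and 5.03% rose and 5.75% fell in WT organoids. The median change was 0.03 log2 in ATF2/7 fl organoids, against 0.01 over all tested genes, and -0.01 log2 in WT organoids, against 0.01. Ang2, another angiogenin family ribonuclease, rose 1.92-fold in ATF2/7 fl organoids (0.94 log2, SE 0.09, limma adjusted p = 2.4e-06) and 1.75-fold in WT organoids (0.81 log2, SE 0.09, limma adjusted p = 1.2e-05). Its signal was 7.93 to 8.31 log2 in ATF2/7 fl organoids with TNFa, against 7.06 to 7.32 in untreated ones, and 7.71 to 7.85 log2 in WT organoids with TNFa, against 6.72 to 7.08 without. With TNFa it was 1.34-fold higher in ATF2/7 fl organoids than in WT organoids (limma adjusted p = 0.0173), the direction seen for Ang4.

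Mptx1, the other mucosal pentraxin, gave the same calls as Mptx2 in all 5 comparisons. It was 12.19 to 12.24 log2 in ATF2/7 fl organoids with TNFa, against 11.59 to 11.85 in untreated ones, a 1.39-fold rise (0.47 log2, SE 0.09, limma adjusted p = 0.00246). In WT organoids it was 11.35 to 11.82 log2 with TNFa, against 11.54 to 11.75 without, and was not called (-0.01 log2, limma adjusted p = 0.975). With TNFa it was 1.52-fold higher in ATF2/7 fl organoids than in WT organoids (limma adjusted p = 7.9e-04). Probe sets of such similar genes can share signal. Whether those of Ang4 and Ang2, or of Mptx2 and Mptx1, do so was not tested.

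**Figure D4:**
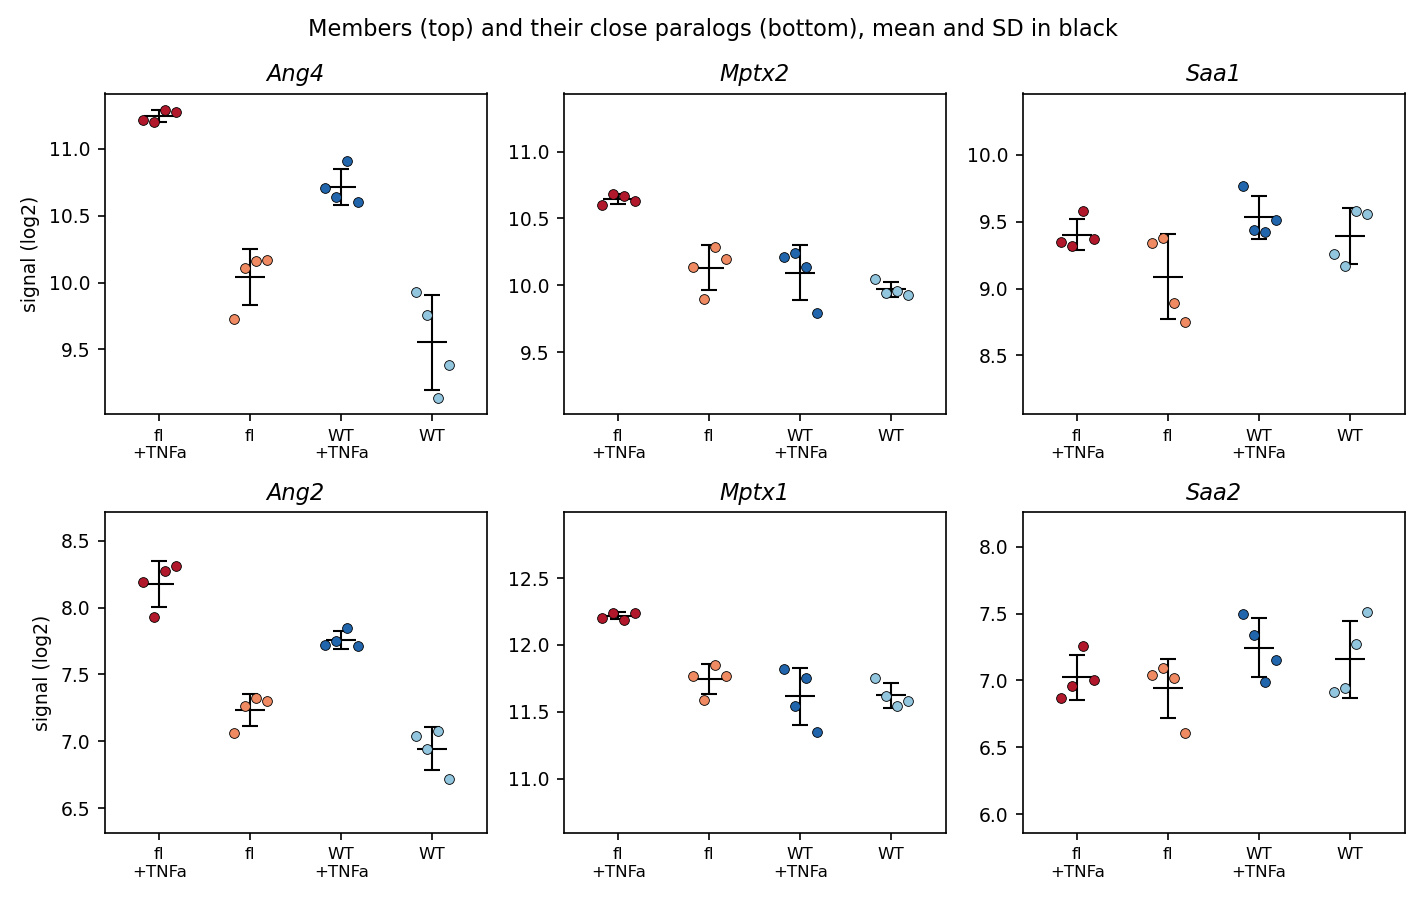
Signal (log2, vertical axis) of Ang4, Mptx2 and Saa1 above their paralogs Ang2, Mptx1 and Saa2, 4 points a group with mean and SD in black; panels span 2.4 log2. Ang2 follows the group order of Ang4, and Mptx1 in treated ATF2/7 fl organoids lies above the other groups as Mptx2 does.

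Saa2, the near relative of Saa1, was called in none of the comparisons. Its TNFa change was 0.08 log2 in ATF2/7 fl organoids (95% interval -0.22 to 0.38) and 0.08 log2 in WT organoids (95% interval -0.22 to 0.38). Among other phospholipases A2, Pla2g10 fell by 0.25 log2 with TNFa in ATF2/7 fl organoids (limma adjusted p = 0.0443). Pla2g5 was 1.39-fold lower in ATF2/7 fl organoids than in WT organoids without TNFa (fell by 0.48 log2, limma adjusted p = 0.0200), the direction of Pla2g2a in that comparison. The group II enzymes Pla2g2c and Pla2g2f were not called in any comparison.

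A separate list held 25 other antimicrobial and barrier genes, most of them for secreted proteins and 1, Elf3, for a transcription factor of epithelial cells. Of the 25, 10 were tested, and TNFa raised 0 and lowered 0 in ATF2/7 fl organoids by limma, with 1 at an unadjusted p under 0.05. In WT organoids it raised 0 and lowered 2, with 3 at an unadjusted p under 0.05, while 5.03% of all tested genes rose and 5.75% fell. Their median change was 0.01 log2 in ATF2/7 fl organoids and -0.05 log2 in WT organoids, against 0.01 log2 over all tested genes in each. The 2 were the lysozyme genes Lyz2 (1.67-fold lower with TNFa, limma adjusted p = 0.0244) and Lyz1 (1.67-fold lower, limma adjusted p = 0.0252), so similar that probes may not separate them. With TNFa, 3 of the 10 were higher in ATF2/7 fl organoids than in WT organoids and 0 lower, against 1.56% and 1.13% of all tested genes. They were Itln1, a lectin of Paneth and goblet cells (1.96-fold, limma adjusted p = 8.0e-04), Lyz1 (2.42-fold, limma adjusted p = 0.00153) and Lyz2 (2.38-fold, limma adjusted p = 0.00177). Itln1 was also 1.74-fold higher in ATF2/7 fl organoids without TNFa (limma adjusted p = 0.00365).

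Regulators known to control acute-phase and antimicrobial genes were measured in the same arrays. Of 22 tested, TNFa raised 6 and lowered 0 in ATF2/7 fl organoids (median 0.11 log2) and raised 7 and lowered 1 in WT organoids (median 0.06 log2), against medians of 0.01 log2 over all tested genes in each. Over all tested genes, 3.51% rose and 2.47% fell in ATF2/7 fl organoids, and 5.03% rose and 5.75% fell in WT organoids. Nfkb2, a subunit gene of NF-kB itself, rose 2.22-fold in ATF2/7 fl organoids (limma adjusted p = 1.3e-09) and 2.05-fold in WT organoids (limma adjusted p = 7.6e-09). Nfkbia, which encodes the NF-kB inhibitor IkBa, rose 2.78-fold in ATF2/7 fl organoids (limma adjusted p = 1.3e-09) and 2.49-fold in WT organoids (limma adjusted p = 7.7e-09). Nfkbiz, whose product IkB-zeta works in the nucleus on genes such as Lcn2, rose 1.40-fold in ATF2/7 fl organoids (limma adjusted p = 9.6e-05) and 1.59-fold in WT organoids (limma adjusted p = 2.2e-06). Bcl3, a related nuclear IkB protein, rose 1.91-fold in ATF2/7 fl organoids (limma adjusted p = 7.9e-07) and 1.53-fold in WT organoids (limma adjusted p = 7.3e-05). Without TNFa, Nfkbiz was 1.22-fold higher in ATF2/7 fl organoids than in WT organoids (limma adjusted p = 0.0231). The AP-1 subunit gene Jun was 1.48-fold lower in ATF2/7 fl organoids than in WT organoids without TNFa (limma adjusted p = 8.6e-04). The C/EBP genes Cebpa, Cebpb and Cebpd were not called in any comparison.

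Receptors for cytokines and microbial products lie upstream of these genes. Of 13 tested, TNFa raised 5 and lowered 0 in ATF2/7 fl organoids and raised 3 and lowered 1 in WT organoids, with a median change of 0.13 log2 in ATF2/7 fl organoids and 0.01 log2 in WT organoids, against 0.01 log2 over all tested genes in each. The shares of all tested genes called were those given for the regulators, and most of the 13 did not pass the test in either genotype. The TNFa receptor gene Tnfrsf1b rose 1.56-fold in both genotypes (limma adjusted p = 7.2e-04 in ATF2/7 fl organoids and 4.7e-04 in WT organoids). Il6st, the shared signalling chain of the interleukin 6 family, rose 1.70-fold in ATF2/7 fl organoids (limma adjusted p = 2.9e-06) and 1.62-fold in WT organoids (limma adjusted p = 7.8e-06). Il4ra, a receptor chain for the type 2 cytokines that induce Retnlb, rose 1.38-fold in ATF2/7 fl organoids (limma adjusted p = 1.9e-04) and 1.32-fold in WT organoids (limma adjusted p = 5.4e-04). Between genotypes 0 of the 13 were higher in ATF2/7 fl organoids. Il4ra was lower there than in WT organoids with TNFa (fell by 0.26 log2, limma adjusted p = 0.0387) and without it (fell by 0.33 log2, limma adjusted p = 0.00952). Il13ra1, its partner chain for interleukin 13, was lower without TNFa (fell by 0.22 log2, limma adjusted p = 0.0443). For comparison, 1.13% of all tested genes were lower in ATF2/7 fl organoids with TNFa and 1.48% without. Of 6 tested receptors and binding partners of the secreted proteins themselves, limma called 0 in each of the 5 comparisons, with 2 at an unadjusted p under 0.05 for TNFa in each genotype and 0 in the other 3.

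Lists of marker genes were followed for cell types that store such proteins. Whether these colon organoids held Paneth cells was not tested. In such bulk samples, fewer cells of a type and less RNA per cell cannot be told apart. Of 10 Paneth cell markers on the array, 8 were tested. With TNFa, 6 of the 8 were called higher in ATF2/7 fl organoids than in WT organoids and 0 lower, against 1.56% and 1.13% of all tested genes. Pnliprp2 (8.9 against 9.4 log2) and Nupr1 (12.1 against 12.2 log2) had lower means in treated ATF2/7 fl than in treated WT organoids, and were not called. The median difference of the 8 was 0.86 log2, against -0.00 log2 over all tested genes. The 3 with the smallest p were Itln1, Lyz1 and Defa17, an alpha-defensin (4.00-fold, limma adjusted p = 0.00225). The mean signal of the 10 was 8.07 to 8.59 log2 in ATF2/7 fl organoids with TNFa, 7.89 to 8.08 in untreated ATF2/7 fl organoids, 7.59 to 7.84 in WT organoids with TNFa and 7.65 to 8.09 in untreated WT organoids. Of the 10, 6 lay above the 40th percentile on every array and 2 on none. These values moved with the genotype difference of Mptx2 and Ang4 under TNFa, and their part in it was not tested. For TNFa itself, 1 of the 8 rose in ATF2/7 fl organoids (Mmp7, a metalloprotease that processes defensins, 2.27-fold, limma adjusted p = 6.0e-04), and 1 fell in WT organoids (Lyz1). Over all tested genes, 3.51% rose in ATF2/7 fl organoids and 5.75% fell in WT organoids. The median TNFa change of the 8 was 0.35 log2 in ATF2/7 fl organoids and -0.07 log2 in WT organoids. Mmp7 was not called in WT organoids, where it averaged 8.21 log2 with TNFa and 7.62 without.

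Goblet cell markers gave calls in the other direction with TNFa. Of 11 tested, TNFa raised 0 and lowered 1 in ATF2/7 fl organoids and raised 0 and lowered 3 in WT organoids. Over all tested genes 2.47% fell in ATF2/7 fl organoids and 5.75% in WT organoids. The median change of the 11 was -0.06 log2 in ATF2/7 fl organoids and -0.11 log2 in WT organoids, against 0.01 log2 over all tested genes in each. Ccn3, which encodes a secreted matricellular protein, had the largest call in both, and fell by 1.06 log2 in ATF2/7 fl organoids (limma adjusted p = 4.5e-06) and by 1.32 log2 in WT organoids (limma adjusted p = 3.3e-07). In WT organoids Reg4 (fell by 0.75 log2, limma adjusted p = 1.6e-06) and the mucin gene Muc2 (fell by 0.25 log2, limma adjusted p = 0.0216) were the other calls. The mean signal of the 11 was 11.06 to 11.09 log2 in ATF2/7 fl organoids with TNFa, against 11.15 to 11.20 in untreated ones, and 10.80 to 10.91 log2 in WT organoids with TNFa, against 11.10 to 11.14 without. This mean includes Ccn3, the 1 marker called in ATF2/7 fl organoids. Ccn3 was higher in ATF2/7 fl organoids than in WT organoids with TNFa (1.72-fold, limma adjusted p = 4.5e-04) and without it (1.43-fold, limma adjusted p = 0.0121), as was Reg4 (2.40-fold, limma adjusted p = 2.6e-08, and 1.49-fold, limma adjusted p = 1.1e-04). Reg4, a secreted lectin, was the 1 gene of the array called for a difference of TNFa effects, by 0.69 log2 (SE 0.10, limma adjusted p = 0.0344), and the number of genes called there was 0 to 4 when 1 array was left out. It averaged 11.49 ± 0.11 log2 in ATF2/7 fl organoids with TNFa, against 11.56 ± 0.09 in untreated ones, and 10.23 ± 0.02 log2 in WT organoids with TNFa, against 10.98 ± 0.12 without (SD, n = 4 each). These list values moved with TNFa, and their part in the rise of Ang4 was not tested.

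The samples read as colon epithelium. All 13 epithelial markers on the array, Epcam and Car1 among them, lay above the 40th percentile on every array, with list means of 11.2 to 11.4 log2. Of these, Car4, a carbonic anhydrase gene of mature colonocytes, rose 1.60-fold with TNFa in WT organoids (limma adjusted p = 0.0297). Cdx2, an intestinal transcription factor gene, was 1.44-fold lower in ATF2/7 fl organoids than in WT organoids without TNFa (limma adjusted p = 0.0158). Endothelial markers lay above it on no array (6 of 6), and so did 10 of 14 immune cell markers, the lymphocyte genes Cd3e and Cd79a among them, and 5 of 10 fibroblast and muscle markers, while 3 of those 10, Col1a1 among them, lay above it on every array. Of the 8 tuft cell markers on the array, 3 were tested and 0 were called by limma in any comparison, with at most 1 at an unadjusted p under 0.05. Of 2 immune cell markers tested, Elane was called in no comparison, and Lyz2 was called as given above with its near copy Lyz1. Of 4 fibroblast and muscle markers tested, 0 were called by limma, with at most 1 at an unadjusted p under 0.05. Atf2 mRNA was 10.12 ± 0.01 log2 in ATF2/7 fl organoids with TNFa and 10.15 ± 0.03 in untreated ones (SD, n = 4 each). In WT organoids Atf2 was 10.18 ± 0.02 log2 with TNFa and 10.16 ± 0.14 without (SD, n = 4 each). The untreated means of the genotypes lay within the WT spread, and with TNFa the ATF2/7 fl mean was slightly lower. No test of Atf2 between genotypes is given here. Atf7 was looked for by gene symbol, but no named probe set carried it, so its mRNA could not be followed. Array WT + TNFa 2 correlated less with its group (mean r = 0.977) than the other arrays of that group did (0.986 to 0.988). Without that array, Ang4, Pglyrp1, Pla2g2a and Saa3 were still called in WT organoids.

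Genes with the profile most like each called member over the 16 arrays are given as a description, since 8 arrays share TNFa and the arrays of a group share genotype and treatment. Pglyrp1 was most like Nfkbia (r = 0.985), the chemokine gene Cxcl16 (0.983) and the A20 gene Tnfaip3 (0.982). Ang4 was most like Ang2 (r = 0.956), the NADPH oxidase gene Nox1 (0.953) and the small GTPase gene Rab32 (0.948). Pla2g2a was most like Arpin (r = 0.906), the chemokine gene Ccl6 (0.899) and the cytokine gene Tgfb1 (0.895). Saa3 was most like Fam43a (r = 0.913), the sialyltransferase gene St6galnac1 (0.911) and B2m, the light chain of MHC class I (0.900). Mptx2 was most like Mptx1 (r = 0.950), the membrane protease gene Tmprss4 (0.916) and Ifitm3, an interferon-induced membrane protein (0.904).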

How the data were processed

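The authors summarised each Affymetrix array to log2 signals per probe set with RMA in Expression Console, per the submitters' processing notes. Tool versions and probe positions are not given in the sources used here. Values ran from 2.23 to 12.9 log2 and array medians from 7.02 to 7.11. Of 19825 probe sets, 18851 carried 1 gene symbol, 974 none and 0 several. Samples were taken as treated where their own titles name TNFa. A gene was represented by its brightest probe set, and 11766 genes passed the filter. A model of 4 group means was fitted with limma 3.58.1 (R 4.3.3), with Benjamini-Hochberg adjustment over all genes tested, and the functions were tested on simulated data. Errors are the SE of the fit, and intervals cover 95%. The number of arrays limits the precision. Members and gene lists were chosen with earlier results of these data known. All 8 members were named, up to 3 called genes of each other list and comparison, and the 3 genes most like each called member. Other genes named were marker or family genes, chosen after their values were seen. The labels do not say what the sample numbers stand for, so no block was used. Correlations of same-numbered deviations, within and between genotypes, ran from -0.305 to 0.248. Such correlations cannot exclude that treated and untreated arrays of 1 number were paired.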

Additional observations from a re-analysis of the deposited data

Results flagged for a closer look

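In 32 groups of 4 arrays, 8 members in 4 groups each, 2 held an array far from the others of its group by Dixon's test, and chance gives about 1 in 20 groups. Ang4 was 9.73 log2 on array ATF2/7 fl 1, below 10.11 to 10.17 on the other 3 untreated ATF2/7 fl arrays. Without that array, the Ang4 difference between ATF2/7 fl and WT organoids without TNFa was 0.59 log2 and was called (limma adjusted p = 0.0308). Retnlb was 3.28 log2 on array WT + TNFa 4, below 3.77 to 3.86 on the other 3 arrays of the group, all in a dim range where Retnlb was not tested.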

How the results depend on the processing

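Of 30 results, 6 tested members in 5 comparisons, 18 kept their direction and their side of the threshold under all 11 other settings and all 16 single arrays left out. A minimum change of 1.2-fold, a stricter question, called 2 members for TNFa in WT organoids in place of 4. For TNFa in ATF2/7 fl organoids it called 3 in place of 4, as Mptx2 lost its call (limma adjusted p = 0.412). For the genotype with and without TNFa it called 0 in place of 2 and 0 in place of 1. For the genotype with TNFa, 1 member was called, Mptx2, with no filter, a variance trend, centring on array medians or the replicate block, where Ang4 had limma adjusted p of 0.0833, 0.0505, 0.0647 and 0.105. The block, which joined same-numbered arrays of all 4 groups, was no part of the design, since the labels do not explain the numbers. It changed no other count of members. A block within each genotype was not fitted. Without TNFa, array weights (limma adjusted p = 0.0427) or a second quantile normalization (0.0411) added Ang4, giving 2 in place of 1. A variance trend called Pla2g2a for the difference of TNFa effects, 1 in place of 0. With 1 array left out, 4 to 5 members were called for TNFa in ATF2/7 fl organoids, 3 to 4 for TNFa in WT organoids, 1 to 2 for the genotype with TNFa, 0 to 1 without TNFa and 0 to 0 for the difference. Signs turned only near 0: Saa3 for the genotype without TNFa (-0.0042 log2 after centring, -0.0376 to 0.0622 without single arrays), and for the difference of TNFa effects Ang4 (-0.0394 with array weights, -0.0869 to 0.18 without single arrays) and Pglyrp1 (-0.0105 with array weights, -0.0176 after quantile normalization, -0.0259 to 0.0376 without single arrays). Saa3 was called for TNFa in ATF2/7 fl organoids with the 60th percentile filter (limma adjusted p = 0.0460) or array weights (0.0406). The causes were not tested. Over all tested genes, calls for TNFa in ATF2/7 fl organoids numbered 704 (1095 with array weights, 143 with the minimum change) and in WT organoids 1269 (723 with only the compared arrays, 216 with the minimum change). Genotype calls with TNFa numbered 317 (617 with array weights, 196 with only the compared arrays, 55 with the minimum change, 191 to 339 with 1 array left out), and without TNFa 292 (443 with array weights, 60 with the minimum change). For the difference of TNFa effects the 1 gene became 5 with a variance trend, 3 with array weights or the 60th percentile filter, 0 with the replicate block or the minimum change, and 0 to 4 with 1 array left out.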
